A study of Mus musculus with 11 samples.

Results

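The genes of the cytosolic ribosomal proteins were followed across macrophages sorted from mouse mammary tumours. Members were the rows of the deposited expression table whose symbol is Rpl or Rps followed by a number, with a final a, x, l or y allowed, and Rplp0, Rplp1, Rplp2 and Rpsa. The rule used symbols only and found 79 of 17475 genes, 45 of the large subunit, 31 of the small subunit and 3 of the stalk. The 11 libraries came from 6 female mice with PyMT mammary tumours, on a strain backcrossed to B6. Control-PyMT mice gave TAMs and MTMs from mice 1, 3 and 5. MYC-PyMT mice, whose genotype is written S100a8-creRosa26-LSL-MYCPyMT, gave TAMs from mice 2, 4 and 6 and MTMs from mice 2 and 4, and the MTMs of mouse 6 were not analysed here. All mice were lethally irradiated at 7 weeks of age, received marrow from wild-type B6 mice, and ate a low protein diet for 6 weeks from 2 weeks later, so that no library comes from another diet. Both macrophage types were sorted as live CD45+ F4/80+ cells negative for SiglecF, Ly6G, B220 and Ly6C. TAMs (parenchymal tumour-associated macrophages) were Vcam+, and MTMs (stromal mammary tissue macrophages) were Vcam- FOLR2+. The Cre is driven by the S100a8 promoter, the grafted marrow is wild-type in both genotypes, and the share of host cells left in a sort is not known. Each library is 1 mouse and 1 sort. P-values use a spread per gene pooled over the libraries of all 4 groups, without pairing the macrophage types of a mouse.

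A ribosome is built from ribosomal RNA and a single copy of most of these proteins, so cells make the proteins in matched amounts. Their mRNAs are among the most abundant in a cell and share a terminal oligopyrimidine (TOP) tract, a run of pyrimidines that begins with a cytosine at the very start of the mRNA, through which mTORC1 and the protein LARP1 set their translation when amino acids run short. MYC is known as an activator of genes for ribosomal proteins, for the factors that assemble ribosomes and for ribosomal RNA synthesis. Macrophages secrete many proteins and are rich in lysosomes, and so depend on steady protein synthesis.

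Some sequence features were more frequent at the start sites of the members than at those of all genes, though none stood in most member promoters. Of the 79 genes, 59 matched the RefSeq promoter table (GRCm38.p6), with 71 promoters of 250 bases before and 50 bases from the start. The letters CTTTC or CTTTT on the sense strand, beginning within 5 bases of the start, stood in 18.3% of the member promoters. They stood in 2.99% of all 32851 promoters. Other runs of pyrimidines were not sought, so a promoter without these letters can still hold one at its start. The windows of 8 of the 13 members with a match are shown as examples of this match, which TOP mRNAs are known for. In Rpl12 the annotated first base is not a pyrimidine, and in Rpl35 the matched letters lie before the annotated start. Each holds 20 bases before the start, the first transcribed base and 20 bases after it, and capitals mark the matched letters.
Rps27: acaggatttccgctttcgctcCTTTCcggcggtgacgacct
Rps10: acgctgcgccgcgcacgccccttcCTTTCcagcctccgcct
Rps6: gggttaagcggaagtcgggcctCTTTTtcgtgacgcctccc
Rpl12: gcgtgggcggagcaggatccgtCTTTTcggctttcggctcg
Rpl28: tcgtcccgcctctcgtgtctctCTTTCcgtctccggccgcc
Rpl35: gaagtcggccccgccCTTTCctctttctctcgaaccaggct
Rpl38: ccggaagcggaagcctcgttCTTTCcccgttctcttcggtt
Rplp2: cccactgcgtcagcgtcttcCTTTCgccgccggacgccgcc

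On the minus strand these are Rps27 at chr3:90213628-90213668, Rps10 at chr17:27635224-27635264, Rps6 at chr4:86857347-86857387 and Rpl35 at chr2:39005111-39005151. On the plus strand they are Rpl12 at chr2:32961692-32961732, Rpl28 at chr7:4792945-4792985, Rpl38 at chr11:114668560-114668600 and Rplp2 at chr7:141447631-141447671. Each window spans a promoter and the first bases of the first exon. CCGGAAG, the core of ETS family sites, was found on either strand in 36.6% of the member promoters and in 8.86% of all. The YY1 motif AAGATGGC, which can share the letters AAG with it, was found on either strand in 9.86% of the member promoters and 2.75% of all. The E-box CACGTG, the site known for MYC and its partner MAX, was in 11.3% of the member promoters and 7.15% of all. TATAA on the sense strand was in 21.1% and 17.5%. A match of letters describes the promoter and is not a site shown to be used.

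The deposited values behave as log2(x + 1) of reads per gene corrected for sequencing depth and exon length, so levels are on a scale per gene length. Their formula and the gene lengths behind them are not given in the sources used here, and levels of different genes are compared with that limit. From the spacing of the low values, each library held an estimated 32.8 to 43.5 M reads in genes, and 581 to 3522 genes without a read. Both extremes of the last count were MYC TAM libraries, of mouse 4 and of mouse 2. The 8 macrophage markers averaged 7.48 to 8.61 in the libraries, and the lowest single value was 3.97, for Fcgr1 in the MYC TAMs of mouse 4. They did not move as a set. In MYC TAMs 4 of the 8 were called lower than in control TAMs, where 12% of all genes were. Among them were Csf1r (-2.57) and Emr1, the gene of the sort marker F4/80 (-1.81). Another 2 were called higher, Cd68 (1.95) and Lyz2 (1.39), where 3.89% of all genes were. Markers of T and NK cells averaged 1.75 to 2.61 in control TAMs and 0.21 to 0.44 in MYC TAMs, where 5 to 12 of the 16 were under 0.1. The row named Myc read 2.66, 3.18 and 3.11 in control TAMs and 2.16, 1.92 and 1.78 in MYC TAMs, a log2 difference of -1.02 (SE 0.19, adjusted p = 0.00583, limma with Benjamini-Hochberg adjustment over all genes). Whether that row counts reads of the MYC transgene is not given in the sources used here, so it does not check the labels.

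Ribosomal protein genes spanned almost the whole range of expression. Among the highest means over the 11 libraries was that of Rpl3, at 10.25, and 6 members had a mean of 10 or more. At the other end stood Rpl39l at 0.23, Rpl3l at 0.46 and Rpl21 at 1.20. Rpl39l and Rpl3l are paralogues of Rpl39 and Rpl3 that are known from testis and from muscle. Rpl39l rested on about 4 estimated reads in the median library, and Rpl3l on about 14. Of the members, 57 had a mean of 5 or more and 9 a mean under 3. Summed on the linear scale the 79 genes made up 5.02%, 5.11% and 4.74% of all values in control TAMs, and 2.98%, 5.26% and 2.97% in the control MTMs of mice 1, 3 and 5. Their share was 11.4%, 5.98% and 3.80% for the TAMs of MYC mice 2, 4 and 6, and 4.78% and 4.62% for the MTMs of mice 2 and 4. The order of the members among themselves moved little, with Spearman's rho of 0.905 to 0.975 between any pair of libraries (55 pairs, across 79 genes, which are not independent replicates and share each library).

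The levels set the libraries apart more than the groups. The mean over the 79 genes was 6.42, 6.47 and 6.41 in the control TAMs of mice 1, 3 and 5. In control MTMs it was 5.74, 6.62 and 5.78. MYC mice 2, 4 and 6 gave 7.45, 6.76 and 6.12 for their TAMs, and mice 2 and 4 gave 6.30 and 6.29 for their MTMs. Control TAMs and MYC MTMs were therefore nearly level within their group (6.43 ± 0.03, SD, n = 3, and 6.30 ± 0.01, n = 2). The libraries of the other two groups stood far apart (6.05 ± 0.50 in control MTMs and 6.78 ± 0.66 in MYC TAMs, n = 3 each). Every pair of groups overlapped in this mean except control TAMs and MYC MTMs, whose means lay closer together than the libraries of either other group. The other genes with a mean of 5 or more averaged 6.33, 6.27 and 6.20 in the same MYC TAM libraries.

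**Figure D1:**
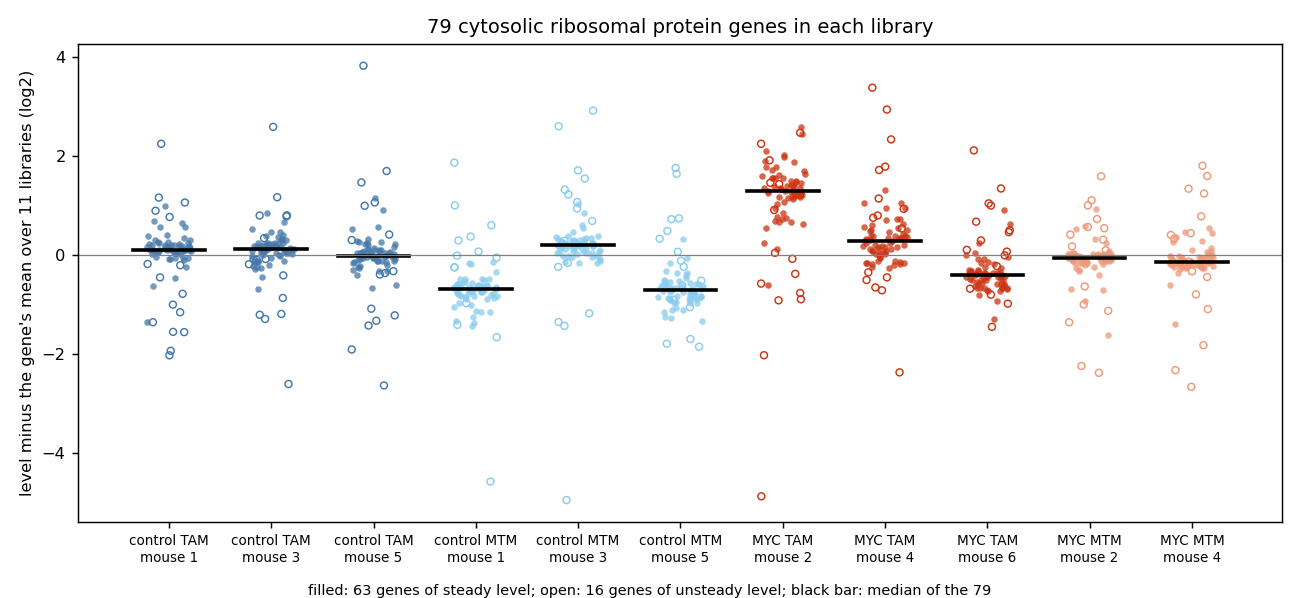
Level of each of the 79 ribosomal protein genes in each library, as the log2 difference from the gene's own mean over the 11 libraries (vertical axis); libraries are grouped on the horizontal axis and black bars are medians. The cloud of MYC TAM mouse 2 lies above all others, and those of control MTM mice 1 and 5 lie lowest; open circles are the 16 genes whose level moved apart from the rest.

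Nearly the whole family took the same order over the MYC TAM libraries. Mouse 2 was above mouse 4 and mouse 4 above mouse 6 in 63 of 79 members, an order held by 15.1% of all genes and by 31.5% of genes with a mean of 5 or more. Mouse 2 gave the highest of the MYC TAM values in 66 members (22.4% of all genes, 43.1% with a mean of 5 or more) and the highest value of all 11 libraries in 63 members (7.55% of all genes, 19.3% of those with a mean of 5 or more). Mouse 6 gave the lowest MYC TAM value in 68 members (34.8% of all genes, 47.8% with a mean of 5 or more). On the log2 scale the median member was 1.68 higher in mouse 2 than in mouse 6, which is 3.20-fold, with quartiles of 1.20 and 2.01. Mouse 2 exceeded mouse 4 by a median of 1.09, and mouse 4 exceeded mouse 6 by 0.59. In control MTMs mouse 3 was the highest in 72 of 79 members (35.8% of all genes, 58.5% with a mean of 5 or more), by a median of 0.90 over the mean of mice 1 and 5. These are single libraries, so the differences between mice were not tested.

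The spread per gene shows the same contrast. The median SD of a member over the libraries of a group was 0.13 in TAMs and 0.54 in MTMs of control mice, and 0.97 in TAMs and 0.10 in MTMs of MYC mice. For the other genes with a mean of 5 or more it was, in that order, 0.17, 0.23, 0.31 and 0.10. The SD over MYC TAMs was above the SD over control TAMs in 69 of 79 members, against 68.4% of all genes and 72.8% of those with a mean of 5 or more.

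Among the large subunit genes, Rpl3, which lies near the peptidyl transferase centre, and Rpl4, which lines the exit tunnel, followed the family closely. In control TAMs Rpl3 read 10.42, 10.37 and 10.31, with 9.51, 10.30 and 9.54 for the MTMs of the same mice. MYC TAMs gave 11.44, 10.64 and 9.89 and MYC MTMs 10.19 and 10.19. Rpl4 read 9.97, 10.16 and 10.04 in control TAMs, and its MYC TAM libraries of mice 4 and 6 read 10.40 and 9.53, below mouse 2. In both genes the control TAM values lay inside the span of the MYC TAM values. Rpl38, known for its part in the translation of Hox mRNAs, read 9.70, 8.18 and 7.59 in MYC TAMs and 8.46, 8.49 and 8.38 in control TAMs. Rpl39, a very small protein of the same tunnel, read 7.07, 5.14 and 4.91 in MYC TAMs. Its control MTM values were 4.28, 5.66 and 4.03, so that mouse 3 matched the control TAMs (5.49, 5.70 and 5.52) and mice 1 and 5 lay more than 1 unit below. Rpl12 was among the widest in MYC TAMs, at 8.25, 6.35 and 5.86. Rpl5, which with Rpl11 binds a small ribosomal RNA and can hold back Mdm2, broke the order, since mouse 4 (7.57) stood above mouse 2 (6.93) and mouse 6 (5.67). Over the 45 genes the mean was 6.84, 6.38 and 5.77 in the MYC TAMs of mice 2, 4 and 6.

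Among steady members with a mean of 5 or more, the widest and the narrowest over MYC TAMs belonged to the small subunit. Below that mean Rps15a was wider still, at 6.03, 4.73 and 3.13, a range of 2.89. Rps27, a zinc finger protein, read 11.39, 9.90 and 8.57 in MYC TAMs, a range of 2.82 on the log2 scale, against 8.92, 8.84 and 8.55 in control TAMs. Rps10, which is tagged with ubiquitin when ribosomes collide, ranged over 2.75, from 7.72 in mouse 2 to 4.97 in mouse 6. Rps21 ranged over only 0.32 (6.34, 6.66 and 6.61), with mouse 2 the lowest. Rps2, at the entry of the mRNA channel, ranged over 0.89 (8.63, 8.43 and 7.74). Rps14 read 6.48, 5.56 and 4.41 in MYC TAMs and Rps19, the gene most often altered in Diamond-Blackfan anaemia, read 4.84, 4.05 and 2.81. Rps4x gave 9.56, 8.22 and 7.65. Rps3, which also has a role in DNA repair, read 8.24, 8.23 and 6.56, so that only mouse 6 stood apart. Rpsa, also known as the laminin receptor, read 9.71, 8.15 and 7.82 in MYC TAMs and 8.76, 8.80 and 8.68 in control TAMs, above each of its control MTM values of 7.73, 8.53 and 7.55. Rps27a, made as a fusion with ubiquitin, read 6.30, 4.76 and 4.34 in MYC TAMs, 3.24, 3.26 and 4.61 in control TAMs, and 2.78 and 3.11 in MYC MTMs. Over the 31 genes the mean was 8.19, 7.19 and 6.48 in the MYC TAMs of mice 2, 4 and 6.

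The stalk proteins recruit the elongation factors to the ribosome. Rplp0, the scaffold of the stalk and a common reference gene for quantitative PCR, read 9.59, 8.72 and 8.66 in MYC TAMs, 8.98, 9.05 and 8.83 in control TAMs, and 8.37, 9.17 and 8.35 in control MTMs. Rplp1 gave 10.04, 8.73 and 8.61 in MYC TAMs against 8.62, 8.79 and 8.75 in control TAMs. In both, only mouse 2 stood above the control TAMs. Rplp2 read 7.01, 6.55 and 5.79 in MYC TAMs and 5.59, 5.70 and 3.16 in control TAMs, and the last value alone set its low control mean.

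**Figure D2:**
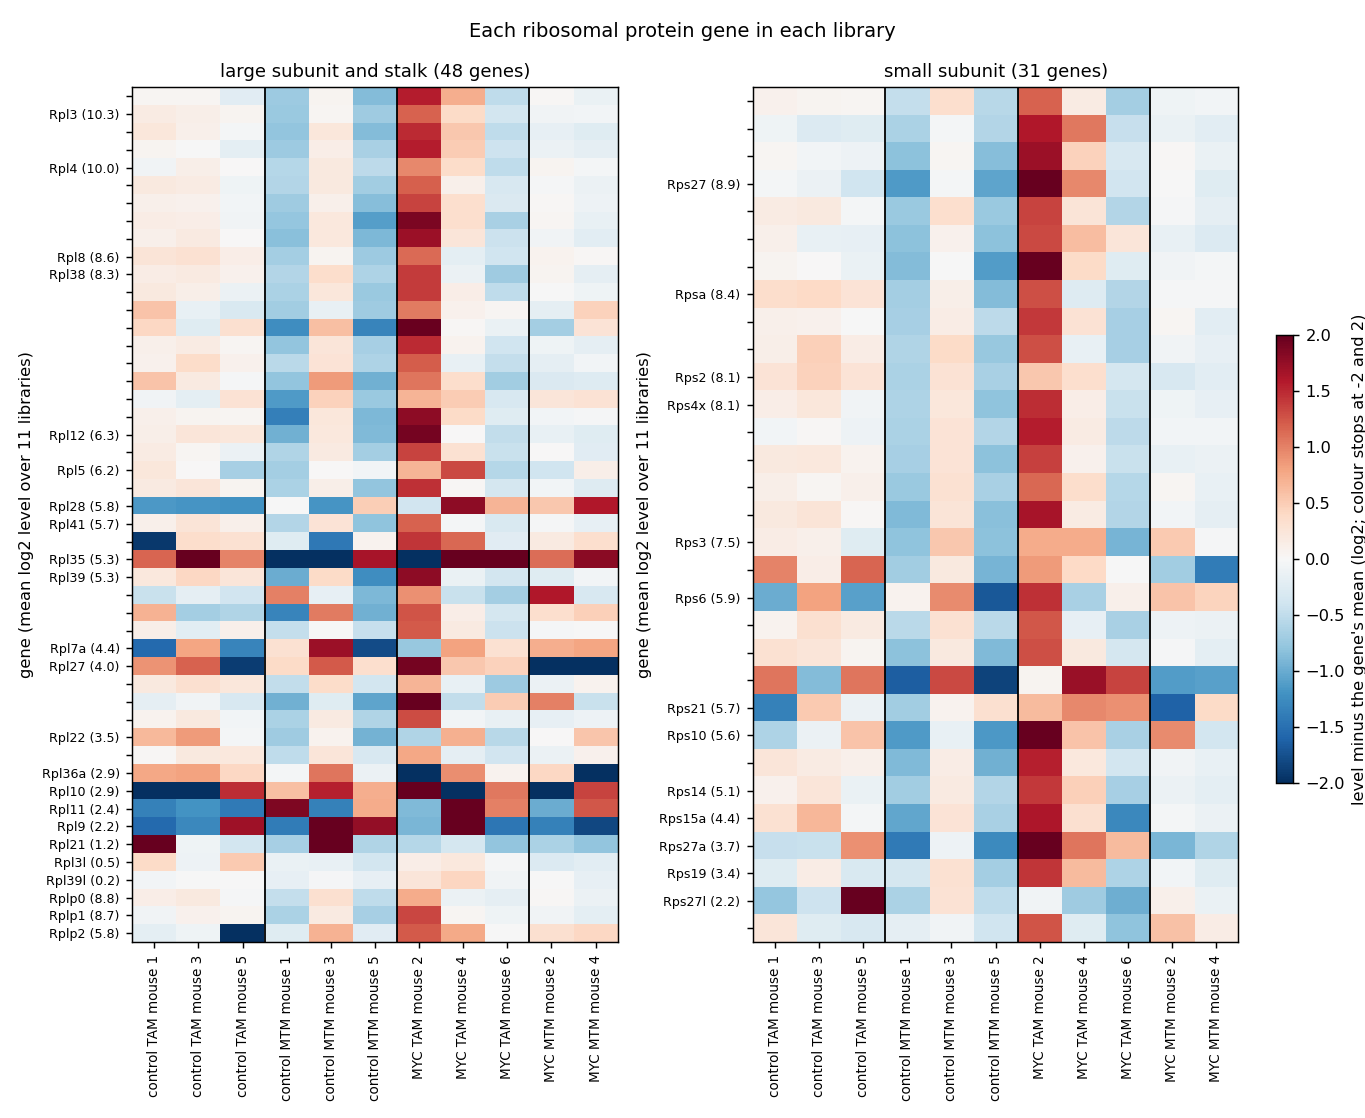
Heat map of the 79 genes (rows ordered by mean level within each panel, the stalk last, with those described in the text named and their mean log2 level in brackets) in the 11 libraries (columns); colour is the log2 difference from the gene's mean, red for higher. The column of MYC TAM mouse 2 is red and the columns of control MTM mice 1 and 5 are blue over nearly all rows, while rows such as Rpl35, Rpl10 and Rpl9 change from library to library within a group.

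A minority of members did not keep step with the rest. After the median of the members was taken off each library, 16 genes still ranged over more than 2 log2 units within a group, and 63 did not. This threshold was chosen after the values were seen. Rps21, at 1.90, lay just inside it and Rps6, at 2.13, just outside. Rpl35, of the tunnel exit, was the widest. Control TAMs gave 6.45, 7.87 and 6.28 and control MTMs 0.71, 0.34 and 6.93. MYC TAMs gave 0.41, 8.22 and 7.40 and MYC MTMs 6.39 and 7.09, so that 3 libraries of 2 groups were under 1. Rpl10, one of the last proteins to join the subunit, read 0.85, 0.28 and 4.35 in control TAMs and 5.35, 0.51 and 3.92 in MYC TAMs. Rpl11 read 1.03, 1.18 and 0.96 in control TAMs and 1.49, 4.72 and 3.39 in MYC TAMs, where mouse 2 was the lowest. Rpl9 changed from 0.78 to 5.61 within MYC TAMs, and Rpl21 was 3.45 in 1 control TAM library and 3.81 in 1 control MTM library and at most 1.11 in the other 9. Rps27l, the paralogue of Rps27 known as a p53 target, read 6.04 in the control TAMs of mouse 5 and 1.24 to 2.51 in the other 10 libraries. Rps6, the substrate of S6 kinase, read 4.95, 6.75 and 4.86 in control TAMs and 7.41, 5.29 and 6.05 in MYC TAMs.

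Over the 63 steady members the order of the libraries was tighter. Mouse 4 exceeded mouse 6 in MYC TAMs in 63 of 63, mouse 2 exceeded mouse 6 in 61 of 63 by a median of 1.85, and mouse 3 exceeded the mean of mice 1 and 5 in control MTMs in 63 of 63. The steady genes were chosen on within-group values, so these counts are a description. Among all members, 8 were lower in mouse 2 than in mouse 6, and 6 of the 8 were unsteady (such as Rpl35, Rpl36a, Rpl11, Rpl7a and Rpl28), with Rps21 and Rpl22 as the steady ones.

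**Figure D3:**
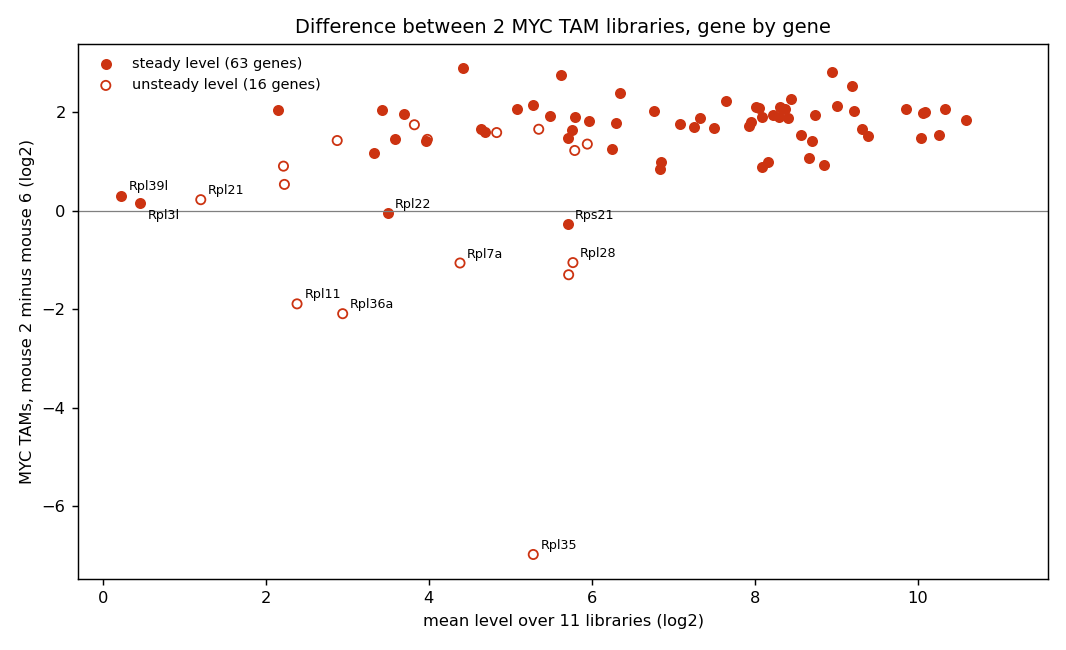
Each point is 1 ribosomal protein gene, with its mean log2 level over the 11 libraries on the horizontal axis and the log2 difference between the MYC TAM libraries of mouse 2 and mouse 6 on the vertical axis. Filled points (63 genes of steady level) gather around 1.85 at all levels above about 2, and the points below 0 are mostly open (unsteady genes), with Rpl35 at -6.99.

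Ribosomal protein genes have many processed copies in the genome, and reads from such copies can be split between genes by a mapper. At 95% identity over 80% of the coding sequence, 72 of 79 members had at least 1 other annotated transcript copy, with a median of 5 and up to 57 for Rpl21. How the authors counted reads that map to several places is not given in the sources used here, so the levels of these 72 genes are uncertain in that respect. The 7 members without a copy, Rps27l, Rps3, Rpl8 and Rpl41 among them, held the order of mouse 2 over 4 over 6 in 5 of 7, with a median difference between mice 2 and 6 of 0.91. In the 34 members with 1 to 5 copies the order held in 26 and the median was 1.77, and in the 38 with 6 or more it held in 32 and the median was 1.75. Across the 79 members the number of copies had a Spearman's rho of 0.04 with the level and 0.07 with the within-group range. The 13 members with CTTTC or CTTTT at the start differed between mice 2 and 6 by a median of 1.45. The 46 matched only to promoters without these letters, which may hold another pyrimidine run, differed by 1.65. These classes also differed otherwise, with 6 of the 13 and 8 of the 46 being genes of unsteady level, and median levels of 5.62 and 6.58.

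The groups were compared with limma over all 17475 genes, with a threshold of 0.05 on the adjusted p. The median log2 difference of the members is given beside that of all genes. Because the spread was pooled over all 4 groups, the wide MYC TAM and control MTM libraries entered every comparison. Their median SD of a member was 0.97 and 0.54. In control mice the comparison of TAMs with MTMs called 0 of 79 members, where 2.37% of all genes were called (0.744% higher and 1.63% lower). The libraries did not overlap, with TAMs higher, in 4 members (6.9% of all genes), and with TAMs lower in 0 (12%). At an unadjusted p under 0.05 there were 4 members higher and 0 lower (4.36% and 7.43% of all genes), and the smallest adjusted p of a member was 0.168. The median difference was 0.46, and 69 members were above 0, against 44.4% of all genes (median -0.0038). Within the mice the members averaged 0.68 higher in TAMs in mouse 1 and 0.63 in mouse 5, and -0.15 in mouse 3. Without control MTM mouse 3 and MYC TAM mouse 2, a choice made after seeing the values, the median was 0.78 and 19 members were called higher (1.04% of all genes). They included Rpsa, Rpl39, Rplp1, Rps2, Rpl8 and Rpl12. Without control TAM mouse 3 the only call was Rpl3l, a gene of very few reads. In these bulk libraries a lower level cannot be told apart from fewer cells of a type with a high level.

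In MYC mice the comparison of TAMs with MTMs called 1 member, where 4.49% of all genes were called (0.664% higher and 3.82% lower). The libraries did not overlap, with TAMs higher, in 7 members (6.82% of all genes), and with TAMs lower in 0 (23.5%). Rpl27 (chr11:101442298-101445529, GRCm38) gave 5.90, 4.52 and 4.45 for MYC TAMs against 1.61 and 1.33 for MYC MTMs, without overlap, and was higher by 3.49 on the log2 scale (SE 0.83, adjusted p = 0.0468). It is an unsteady member, and its control libraries ran from 2.08 to 5.21. With the mouse as a fixed replicate block the difference was 3.74 (SE 0.68, adjusted p = 0.0567, limma), and the call was lost. Its call was kept in 7 of 22 alternative settings, over which the adjusted p ran from 0.0065 to 0.263. Rps27a was 2.19 higher (SE 0.64, adjusted p = 0.0974), which was not past the threshold. The median of the members was 0.47, with 68 above 0 (48.1% of all genes, median -0.01). Within the mice, TAMs exceeded MTMs in 72 of 79 members in mouse 2 (mean 1.14) and in 62 in mouse 4 (mean 0.47), against 44.6% and 40.7% of genes with a mean of 5 or more. Without MYC TAM mouse 2 the median of the unpaired fit, which then sets the TAMs of mice 4 and 6 against the MTMs of mice 2 and 4, was -0.03, with 38 of 79 members above 0 (48.8% of all genes). Centring each library on its median called 7 members (26.1% of all genes), and turned the calls over all genes from 116 higher and 668 lower to 3919 higher and 643 lower (171 and 400 with quantile normalisation).

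MYC and control TAMs differed in 15.9% of all genes, 3.89% higher and 12% lower in MYC. Of the members, 1 was called higher and 0 lower. MYC TAMs lay above all control TAMs in 5 members (8.03% of all genes) and below them in 0 (22.1%). Rpl28 (chr7:4792874-4795066, GRCm38), a large subunit protein, read 4.62, 4.58 and 4.55 in control TAMs and 5.39, 7.56 and 6.44 in MYC TAMs, without overlap, a difference of 1.88 (SE 0.56, adjusted p = 0.0496). It too is unsteady, was lowest in mouse 2, and kept the call in 8 of 21 alternative settings, with an adjusted p of 0.00684 to 0.162. The largest difference was that of Rpl11, at 2.14 (SE 0.97, adjusted p = 0.185), and the lowest that of Rpl35, at -1.52 (SE 2.15, adjusted p = 0.655). Rplp2 differed by 1.63 (SE 0.63, adjusted p = 0.118) and Rps27 by 1.19 (SE 0.59, adjusted p = 0.234). At an unadjusted p under 0.05 there were 4 members higher and 0 lower (7.11% and 20.8% of all genes). The median of the members was 0.29, with 63 above 0 (47.2% of all genes, median -0.02). Without MYC TAM mouse 2 it was -0.16, with 29 above 0 (48% of all genes), and without MYC TAM mouse 6 it was 0.70, with 6 members called higher (5.37% of all genes). With each library centred on its median, 8 members were called higher (35.3% of all genes) and the median was 0.59, while the median of all genes rose to 0.28. That centring turned the balance of all calls from 680 higher and 2098 lower to 6163 higher and 1473 lower, and quantile normalisation gave 1107 and 1553.

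MYC and control MTMs differed in 0.618% of all genes (0.338% higher and 0.28% lower), and 0 members were called. MYC MTMs lay above all control MTMs in 3 members (11.1% of all genes) and below them in 1 (20.1%). At an unadjusted p under 0.05 there were 0 members higher and 1 lower (3.53% and 6.55% of all genes), and that member was Rpl27, at -3.16 (SE 0.83, adjusted p = 0.165). The median was 0.28, with 69 members above 0 (36.8% of all genes, median -0.02), and without control MTM mouse 3 it was 0.60. The interaction of genotype and cell type (the TAM to MTM difference of MYC mice minus that of control mice) called 0 members, where 1.24% of all genes were called (0.24% higher and 0.996% lower). At an unadjusted p under 0.05 there was 1 member higher, Rpl27 (4.08, SE 1.11, adjusted p = 0.147), and 1 lower (2.86% and 8% of all genes). The median was -0.03, with 35 members above 0 (51.8% of all genes, median 0.01), and with the libraries centred on their medians it was 0.18, where the median of all genes was 0.23. Over all genes 42 were called higher and 174 lower, against 56 and 82 in centred libraries. The comparisons share libraries, so their values for a gene are not independent of each other. All comparisons rest on 2 or 3 mice a group, and the MYC TAM and control MTM groups vary by more than the differences between group means.

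**Figure D4:**
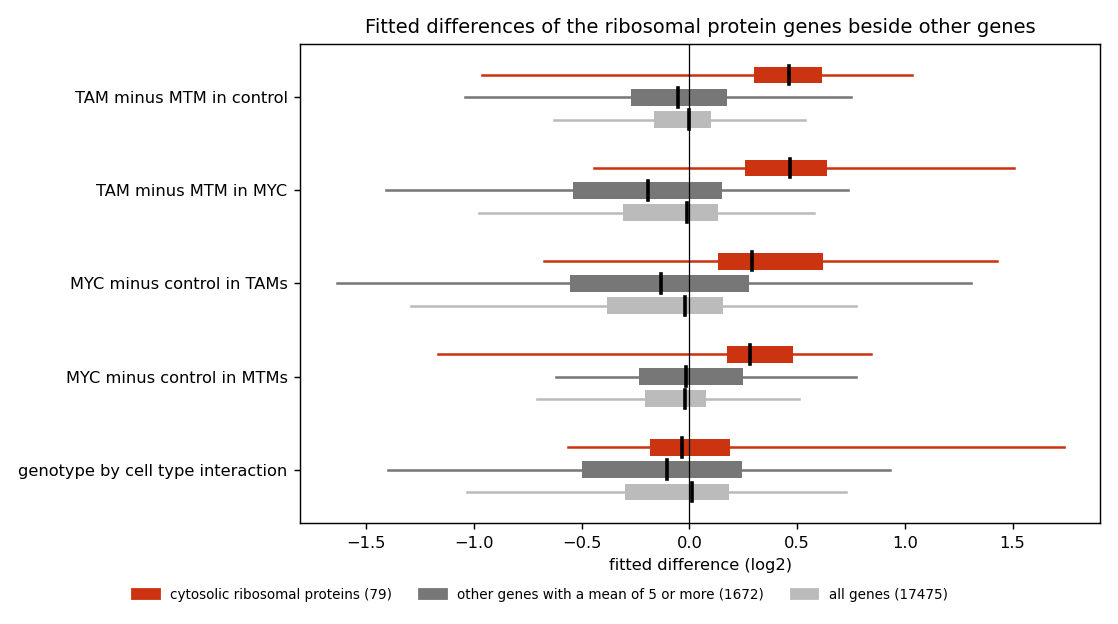
Fitted log2 differences (horizontal axis) in the 5 comparisons for the 79 ribosomal protein genes, the 1672 other genes with a mean of 5 or more, and all 17475 genes. Bars span the quartiles, lines the 5th to 95th percentiles, and black marks are medians; the medians of the members are 0.46, 0.47, 0.29, 0.28 and -0.03 from top to bottom.

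Other genes of translation followed the ribosomal proteins to different degrees over the MYC TAM libraries. The 7 ribosomal protein genes with symbols outside the rule (such as Fau, Rack1, Rps3a1 and Rpl22l1) averaged 7.70 in mouse 2, 6.80 in mouse 4 and 6.47 in mouse 6. The 17 elongation factors and other TOP mRNAs averaged 6.97, 6.15 and 5.88. The 75 mitochondrial ribosomal proteins, which are built into a separate ribosome, averaged 4.23, 3.96 and 3.75. The 30 initiation factors averaged 5.47, 5.41 and 5.24 and the 40 measured genes of ribosome biogenesis 4.38, 4.32 and 4.13. The span from mouse 2 to mouse 6 was 1.33 for the members, 1.23 for the ribosomal proteins outside the rule, 1.09 for the TOP mRNAs, 0.47 for the mitochondrial ribosomal proteins, 0.24 for ribosome biogenesis and 0.23 for the initiation factors. In control MTMs the TOP mRNAs averaged 5.59, 6.16 and 5.72 and the ribosomal proteins outside the rule 6.37, 7.14 and 6.46, again with mouse 3 the highest.

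Among the genes that assemble ribosomes, more were called lower than higher in MYC than in control TAMs. Of 40 ribosome biogenesis genes, 10 were called lower and 1 higher (12% and 3.89% of all genes), with a median of -0.42. Centred libraries gave 6 lower and 4 higher, where 8.43% and 35.3% of all genes were. Quantile normalisation gave 5 lower and 3 higher, beside 1553 lower and 1107 higher of all 17475 genes. Bop1, needed for the processing of large subunit RNA, read 5.20, 5.43 and 5.17 in control TAMs and 3.49, 3.48 and 4.30 in MYC TAMs, a difference of -1.51 (SE 0.22, adjusted p = 0.00194). Heatr1, of the small subunit processome, read 4.12, 4.52 and 4.72 and then 2.36, 3.04 and 3.64 (difference -1.44, SE 0.29, adjusted p = 0.00893). In both genes MYC TAM mouse 6 was the highest of its group, where the ribosomal proteins were lowest. The 40 genes as a list did not share this, and averaged 4.38, 4.32 and 4.13 in mice 2, 4 and 6, with mouse 6 the lowest. Of 30 initiation factors, 3 were called lower and 0 higher (median -0.23), among them Eif2s1 (-0.81, SE 0.21, adjusted p = 0.0265, limma). With centred libraries 0 of them were lower and 1 higher, beside the same 8.43% and 35.3% of all genes. Of 17 TOP mRNAs and of 7 ribosomal proteins outside the rule 0 were called (medians 0.08 and 0.06). At an unadjusted p under 0.05 they gave 3 higher and 2 lower, and 0 higher and 1 lower (7.11% higher and 20.8% lower of all genes). Centred libraries gave 3 TOP mRNAs higher, where 35.3% of all genes were. Of 75 mitochondrial ribosomal proteins 0 were called, with 4 higher and 3 lower at an unadjusted p under 0.05 and 8 higher with centred libraries, again beside 35.3% of all genes. Of the 11 mTORC1 and TOP mRNA regulators 1 was called, where 12% of all genes were called lower. It was Rptor, the scaffold of mTORC1, at -1.28 (SE 0.23, adjusted p = 0.00599, limma).

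**Figure D5:**
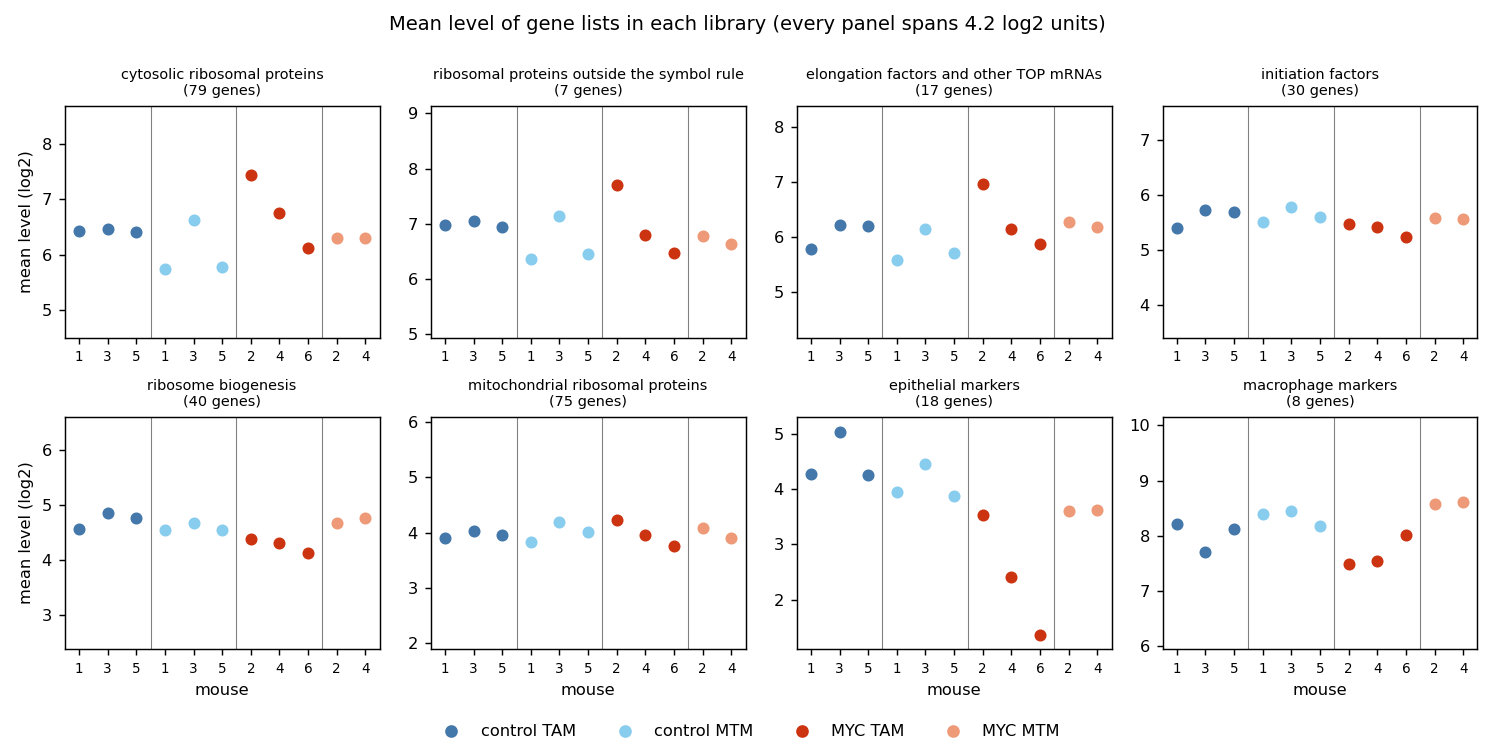
Mean log2 level (vertical axis) of 8 gene lists in the 11 libraries, named by mouse on the horizontal axis and coloured by group; all panels span the same 4.2 units. The step from MYC TAM mouse 2 to mouse 6 is 7.45 to 6.12 for the ribosomal proteins, 5.47 to 5.24 for initiation factors and 3.53 to 1.36 for epithelial markers.

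Other measures moved with the ribosomal proteins across these libraries. The 18 measured epithelial markers averaged 3.53, 2.41 and 1.36 in the MYC TAMs of mice 2, 4 and 6, with summed levels of 63.6, 43.4 and 24.6, and 0, 0 and 1 of them under 0.1. In control MTMs they averaged 3.95, 4.46 and 3.88, again highest in mouse 3. In control TAMs, where the ribosomal proteins were level, they averaged 4.27, 5.04 and 4.25, above every MYC TAM library. In MYC TAMs 11 of the 18 were called lower and 0 higher (12% and 3.89% of all genes). The other way went 3 of the 18, Krt5, Krt14 and Csn2, with a highest difference of 1.16. The mean of the macrophage markers ran the opposite way in MYC TAMs, at 7.48, 7.55 and 8.01. Gene length moved too. For genes with a mean of 5 or more and under 1 kb of exons (85 genes, the members left out), the median deviation from the gene's own mean was taken. It was 0.38, -0.05 and -0.32 in the MYC TAMs of mice 2, 4 and 6. In the control MTMs of mice 1, 3 and 5 it was -0.19, 0.40 and -0.17. For the 299 such genes of 1 to 2 kb it was 0.22, -0.05 and -0.25, and then -0.09, 0.30 and -0.02. The 57 ribosomal proteins with a mean of 5 or more deviated by 1.35, 0.31 and -0.40 in those MYC TAM libraries. In those control MTM libraries they deviated by -0.70, 0.21 and -0.74. The members' own exons summed to 1770 bases in the median, with 11 of 79 under 1 kb. RNA integrity is given only as a range over the libraries, from 3.3 to 9.6. The part of epithelial RNA, gene length or RNA integrity in the ribosomal protein levels was not tested.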

How the data were processed

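Poly-A RNA of 11 libraries was sequenced from 500 ng of RNA each with a stranded kit and 8 PCR cycles, per the labels' protocols. The submitters' processing notes name HISAT2, DESeq2, mm10 and GRCm38.p5 without their roles, and how reads were counted is not given in the sources used here. The authors deposited 1 table of log2 values for 17475 genes, and all its sample columns were used. With exon lengths of the GENCODE vM21 annotation (found for 93.2% of genes), 71.2% of 7663 low values lay within 0.1 of a whole number of reads, which gave the depths. These are estimates that cover counting error only, and fold changes on this scale understate the change of low genes. All 11 libraries entered a group-means model of 4 groups in limma 3.58.1 under R 4.3.3, with a variance trend and no mouse block. Tests were two-sided, with Benjamini-Hochberg over 17475 genes and a threshold of 0.05. The code was tested on simulated independent normal values with the same spread in every group. That simulation held no shift of whole libraries and no pairing of mice, so it does not show how the model handles these. TAMs and MTMs of a mouse are paired by the labels, and their deviations correlated across genes at 0.176, 0.211 and 0.0779 in control mice and 0.0983 and 0.0379 in MYC mice. Copies were sought with BLAST+ 2.17.0 among GENCODE transcripts. Named members were a short set of known genes, the called ones with the smallest adjusted p, the 2 largest rises and falls of each comparison, and the 3 widest, narrowest, highest and lowest. A few others (Rpl12, Rps15a, Rpl22, Rpl36a, Rpl7a) were named after their values were seen. The members and lists were chosen with earlier results of these data known. Some genes are not reported here. Counts, medians and plots were made in Python 3.11.15 (pandas 2.3.3, numpy 2.4.6, matplotlib 3.10.9). Alternatives were a mouse block, other normalisations, filters, pseudocounts and variance models, and each library left out.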

Additional observations from a re-analysis of the deposited data

Results flagged for a closer look

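Rpl9, a large subunit protein, was lower in TAMs than in MTMs in 3 of 3 control mice (-0.15, -4.21 and -0.06 in mice 1, 3 and 5) and higher in 2 of 2 MYC mice (0.44 and 5.20 in mice 2 and 4), which is why it is listed. The difference of the difference was 3.40 on the log2 scale (SE 2.21), and its test did not pass (adjusted p = 0.688, limma with Benjamini-Hochberg adjustment). Rpl9 is one of the unsteady members, and 2 of the 5 pairs carry nearly all of it. Groups of 2 or 3 libraries are too small for the check on single outlying samples.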

How the results depend on the processing

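Over the alternatives run, 3278 of 3521 results for named members kept their direction and side of the threshold, 188 changed sign without a call in either setting, 28 lost the call, 27 gained it and 0 reversed a call. Of 2757 results for other named genes 2475 kept both, 39 changed sign uncalled, 210 lost the call and 33 gained it. The member calls are few and move easily. In MYC TAMs against MTMs the 1 call became 0 with a fixed replicate block for the mouse, a pseudocount of 5, no variance trend, only the groups compared, or steady members only, 2 with genes of mean 1 or more, and 7 in centred libraries. Quantile normalisation lost Rpl27 (adjusted p = 0.0602, limma) and, in MYC against control TAMs, Rpl28 (adjusted p = 0.052), and called 1 other member in each. A random replicate block changed no member count. The fixed block could be fitted only to the comparisons of TAMs with MTMs and their interaction. In MYC against control TAMs the 1 call became 0 with a pseudocount of 5, no variance trend, only the groups compared, or steady members only, and 8 in centred libraries. Leaving out each library in turn gave 0 to 1 calls for control TAMs against MTMs, 0 to 2 for MYC TAMs against MTMs, 0 to 6 for MYC against control TAMs and 0 to 1 for MTMs. The median of the members then ran from 0.31 to 0.78 for control TAMs against MTMs and from 0.14 to 0.60 for MTMs. For MYC TAMs against MTMs it ran from -0.028 to 0.85. For MYC against control TAMs it ran from -0.16 to 0.70, and for the interaction from -0.51 to 0.36. These last medians, from MYC TAMs against MTMs onward, were each lowest without MYC TAM mouse 2. Without MYC TAM mouse 2 and control MTM mouse 3 together, chosen after seeing the data, calls were 19, 0, 4, 0 and 3. Over all genes 3.18%, 3.36%, 12.3%, 0.212% and 1.05% were called. The 4 in MYC against control TAMs included Rpl11 (3.00) and Rpsa (-0.76), and the 3 of the interaction included Rpl39 (-1.52) and Rpsa (-1.51). The medians for MYC TAMs against MTMs, MYC against control TAMs and the interaction were -0.028, -0.16 and -0.81. Centring raised the SD of the library means to 0.078 in control TAMs and 0.041 in MYC MTMs. The cause of these changes was not tested.

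Of 299 results over 13 other lists, 58 counts of called genes moved by over 1.5 times. The lists held 16 T and NK, 18 epithelial, 10 fibroblast and endothelial, and 8 each of macrophage, B cell, dendritic and neutrophil markers. They also held 17 TOP mRNAs, 30 initiation factors, 11 mTORC1 genes, 75 mitochondrial ribosomal proteins, 40 biogenesis genes and 7 ribosomal proteins outside the rule. For control TAMs against MTMs the fixed replicate block gave 1 macrophage marker and 1 ribosome biogenesis gene, the random block 3 T and NK cell markers and 2 biogenesis genes, quantile normalisation 1 TOP mRNA, 1 macrophage marker and 1 biogenesis gene, and the filter on means 2 T and NK, 1 dendritic and 1 biogenesis gene. For MYC TAMs against MTMs the fixed block gave 0 B cell and 1 dendritic marker and the random block 2 mitochondrial ribosomal proteins and 4 biogenesis genes. Centring, which called 26.1% of all genes there, gave 4 of 8 B cell, 4 of 8 dendritic and 4 of 8 neutrophil markers. It gave 2 of 18 epithelial and 2 of 10 fibroblast and endothelial markers. It also gave 1 of 17 TOP mRNAs, 1 of 30 initiation factors and 4 of 75 mitochondrial ribosomal proteins. Quantile normalisation gave 0 T and NK, 1 fibroblast, 2 mitochondrial and 0 biogenesis genes, and the filter 1 dendritic, 1 fibroblast, 2 mitochondrial and 6 biogenesis genes. For MYC against control TAMs centring, which called 43.7% of all genes, gave 3 of 17 TOP mRNAs, 1 of 30 initiation factors and 2 of 11 mTORC1 genes. It gave 8 of 75 mitochondrial ribosomal proteins, 6 of 8 neutrophil and 2 of 10 fibroblast markers. Quantile normalisation gave 2 TOP mRNAs, 2 mTORC1, 3 mitochondrial, 1 B cell and 2 fibroblast genes, and the filter 1 TOP mRNA, 5 initiation factors, 1 mitochondrial, 1 B cell, 1 dendritic, 1 neutrophil and 0 fibroblast genes. For MTMs the filter gave 1 macrophage marker. For the interaction the fixed block gave 0 epithelial, macrophage and mitochondrial genes, and centring and quantile normalisation 0 epithelial, 1 macrophage and 0 mitochondrial. With quantile normalisation the calls over all 17475 genes were 157 higher and 229 lower for control TAMs against MTMs. They were 171 and 400 for MYC TAMs against MTMs, 1107 and 1553 for MYC against control TAMs, and 42 and 111 for the interaction. Shares of all genes called with the mouse blocks and the filter are not given here, so those counts are a description. The groups have 2 or 3 mice each, and the smallest difference that could be called was not measured.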
